A study of Mus musculus with 10 samples.

Results

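Imprinted genes are described here in mouse fetal germ cells, as a set of 41 named genes of 55536 genes in the count table. The members were chosen as a list of known imprinted genes and not by a cut on their values, but earlier results of these data were known. When imprinted, 18 of them are expressed from the maternal allele and 22 from the paternal allele. The remaining member, Gnas, has maternally, paternally and biallelically expressed transcripts. The 41 genes lie in 17 imprinted clusters or single loci, 11 of which hold more than 1 member. For 9 members imprinting is known only in some tissues or for some transcripts.

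An imprinted gene is transcribed from the copy of 1 parent. The choice goes back to DNA methylation that the germ line of either the mother or the father placed on a control region and that the embryo then keeps, and the methylated copy is often the silent one. Many imprinted genes sit in clusters, where a long noncoding RNA or a boundary element silences neighbours on the same chromosome. Primordial germ cells lose these marks by about the time of sex determination, and new marks are set only later, in the growing oocyte or the fetal male germ cell. The libraries of this study come from the time between erasure and the setting of new marks. The tables hold no DNA methylation and no allele of origin, so whether marks were absent, or both alleles transcribed, was not measured.

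The study compared female germ cells that lack Taf4b, which encodes a gonad-enriched subunit of the transcription factor TFIID, with cells that keep it. Live cells positive for an Oct4-EGFP reporter were sorted from dissociated gonads of C57BL/6 embryos at E14.5 (embryonic days), and their bulk RNA was sequenced. There were 4 Taf4b-deficient libraries, labelled infertile, and 4 Taf4b-heterozygous and 2 Taf4b-wildtype libraries, labelled fertile. The parents were homozygous for the Oct4-EGFP transgene and heterozygous for the Taf4b mutation, so cells of every group carried the reporter from both parents. The labels do not say whether each library is a separate animal, and p-values then measure only the spread between these samples, which may be technical.

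Library totals ran from 28949924 to 44166320 counts. The check of the targeted gene gave 56.1 to 65.0 CPM (counts scaled to a common library size) of Taf4b in deficient, 144 to 234 CPM in heterozygous and 152 to 207 CPM in wildtype libraries. The summed level of 9 germ cell markers was 5163 to 6652 CPM. Markers of other gonadal cells were low: 20.5 to 51.1 CPM in all for 12 supporting cell genes and 7.22 to 20.02 CPM for 14 stromal and mesothelial genes. Blood and macrophage markers summed to 21.4 to 31.5 CPM in deficient, 9.36 to 20.96 CPM in heterozygous and 18.2 to 32.7 CPM in wildtype libraries. The 10 genes of the endothelial list summed to 74.5 to 393 CPM, of which Pecam1, also known from early germ cells, made up 64.8 to 380.4 CPM. Cdh5 of the same list stood at 0.022 to 0.236 CPM, which does not give the level of the remaining genes. In 3 libraries (deficient replicates 2 and 4, heterozygous replicate 3) the rRNA-like gene Gm23935 stood at 87.4 to 454 CPM against 4146 to 5068 CPM in the other 7.

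Promoter sequence was available for 32 of the 41 members in RefSeq (GRCm38.p6), as windows from 250 bases before to 50 bases after an annotated start. The windows of 4 members on which the results below turn are printed 5′ to 3′ on the gene's strand. Each CpG, the dinucleotide at which DNA can be methylated, is in capitals. Whether a window lies in the control region of its imprint was not examined. Peg3 (chr7:6730370-6730669, minus strand) shares 263 bases of its window with Usp29, which starts 147 bases away on the opposite strand. Plagl1 (chr10:13090582-13090881, plus strand) and Phlda2 (chr7:143502475-143502774, minus strand) had the smallest p-values among the members for deficient against heterozygous libraries. Dlk1 (chr12:109452573-109452872, plus strand) moved with meiotic stage in the direction opposite to Peg3.
Peg3: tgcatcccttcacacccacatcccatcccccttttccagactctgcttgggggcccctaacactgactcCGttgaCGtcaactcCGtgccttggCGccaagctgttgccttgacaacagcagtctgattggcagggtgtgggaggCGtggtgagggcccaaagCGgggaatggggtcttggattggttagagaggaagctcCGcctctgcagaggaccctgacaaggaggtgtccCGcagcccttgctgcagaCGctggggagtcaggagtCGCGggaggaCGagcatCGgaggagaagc
Plagl1: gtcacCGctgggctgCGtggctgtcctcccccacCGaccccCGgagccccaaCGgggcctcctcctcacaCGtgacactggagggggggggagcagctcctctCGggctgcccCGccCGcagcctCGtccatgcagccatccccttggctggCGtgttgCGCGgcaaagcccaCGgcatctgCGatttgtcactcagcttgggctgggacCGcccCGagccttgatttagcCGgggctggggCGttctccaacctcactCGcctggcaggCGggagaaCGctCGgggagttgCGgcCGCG
Phlda2: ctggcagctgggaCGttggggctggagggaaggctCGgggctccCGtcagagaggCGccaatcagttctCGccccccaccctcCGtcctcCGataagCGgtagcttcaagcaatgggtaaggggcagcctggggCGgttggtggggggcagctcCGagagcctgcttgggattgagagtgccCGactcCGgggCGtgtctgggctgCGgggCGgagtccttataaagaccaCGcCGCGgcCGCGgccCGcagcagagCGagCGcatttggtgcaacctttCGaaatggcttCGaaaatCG
Dlk1: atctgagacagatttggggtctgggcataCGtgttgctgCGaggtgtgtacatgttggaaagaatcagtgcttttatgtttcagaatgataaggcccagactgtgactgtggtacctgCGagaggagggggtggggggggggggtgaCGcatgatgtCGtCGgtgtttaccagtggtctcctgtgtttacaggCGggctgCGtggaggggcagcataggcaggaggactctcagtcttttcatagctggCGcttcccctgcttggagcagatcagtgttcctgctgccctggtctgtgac
These windows held 13 CpG in Peg3, 26 in Plagl1, 26 in Phlda2 and 9 in Dlk1. The mean was 15.3 CpG over the 46 windows of the members and 12.4 over all 32851 windows of that length. The hexamer TGCCGC, bound by the imprint-protecting factor ZFP57 when methylated, was searched on both strands, and its own CG is counted among the CpG. It stood in 11 of 46 member windows (23.9%) and in 3813 of 32851 windows overall (11.6%). Overlapping windows were counted separately, such as those of Mest beginning at 30737800 and 30737803 with 2 matches each. The higher CpG content of the member windows was not accounted for, and the difference between the shares was not tested. Of the printed windows, Plagl1 held 1 match, on the minus strand, beginning at base 161 of the window counted from the 5′ end. A match is a description of the letters and not a measured site.

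Most of the imprinted genes were transcribed in these cells. Over the 10 libraries, 32 of 41 members (78.0%) had a mean of at least 1 TPM (the deposited scale, which corrects for transcript length). Of the 41, 39 passed the filter on low counts. A mean of at least 1 TPM was reached by 75.9% of the 20317 genes that passed and by 29.3% of all 55536 genes. The share was 16 of 18 among maternally expressed and 15 of 22 among paternally expressed members, with Gnas making up the rest. The median over members of the mean level was 16.1 TPM in the maternally expressed and 6.26 TPM in the paternally expressed class, beside 7.48 TPM over all tested genes. These are descriptions of the lists, and the gap between the classes narrowed without the members whose imprinting is restricted, which hold 7 maternally expressed genes and 1 paternally expressed gene. The gap also depends on the scale: as a median log2 level with 0.1 added it was 3.91 against 2.53 by TPM, and 2.81 against −0.59 by CPM per kilobase of exon, which is wider.

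Phlda2, a small protein known for restraining placental growth, was the highest member at 546 ± 146 TPM (SD, n = 10 libraries), with a range of 343 to 775 TPM. Copg2, a coat protein subunit of vesicles between Golgi and endoplasmic reticulum, followed at 133 ± 22.6 TPM. The lowest Phlda2 library lay above the highest Copg2 library, which had 159 TPM, so the first place held in every library. Snrpn, a spliceosomal protein, followed at 124 TPM and ranged from 83.4 to 151 TPM, which overlaps the range of Copg2, so these neighbours in the order do not differ beyond their spread. Next came Gnas, the stimulatory G protein alpha subunit, at 105 TPM, and Cdkn1c, a cyclin-dependent kinase inhibitor, at 76.8 TPM.

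**Figure D1:**
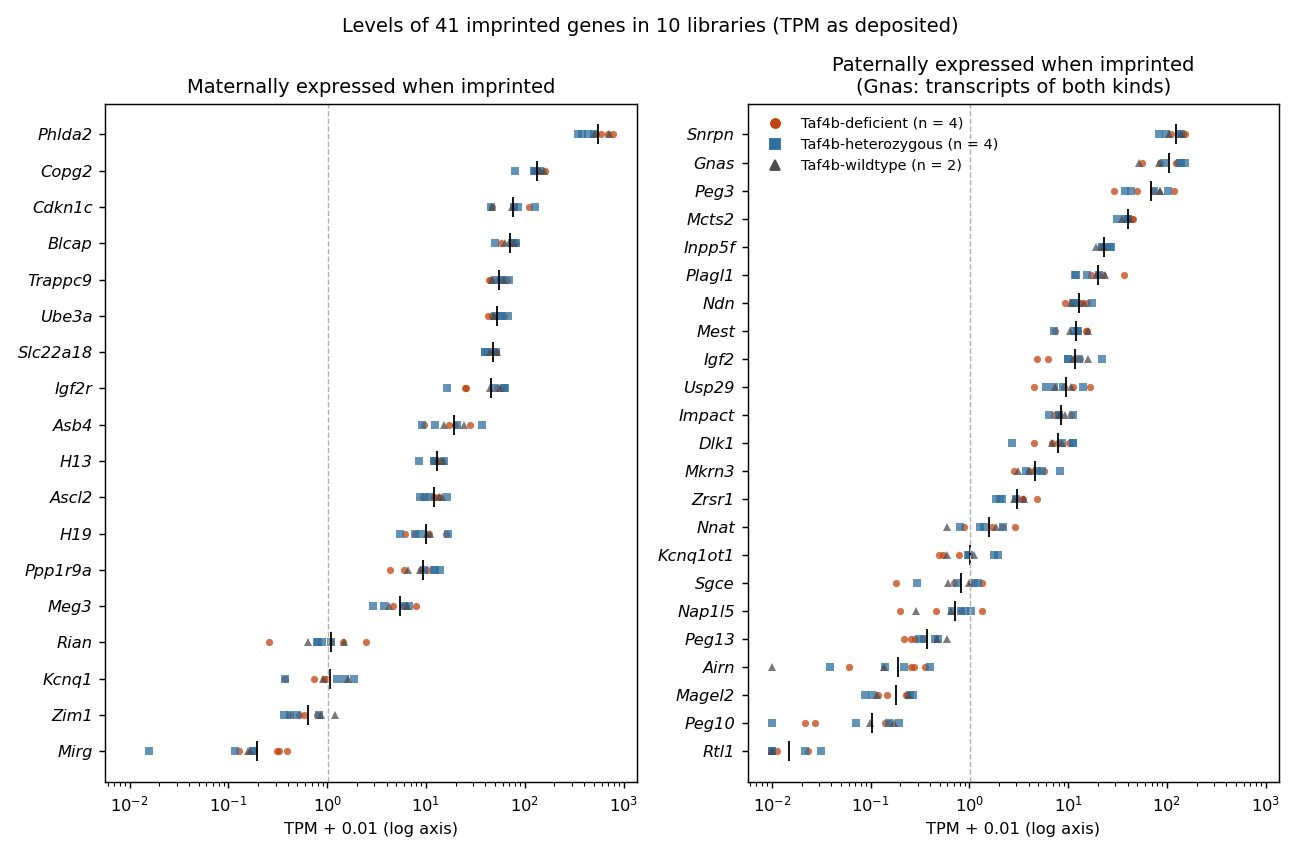
Deposited TPM of each of the 41 imprinted genes (log axis, with 0.01 added), by the parental allele expressed when imprinted. Points are libraries, coloured and shaped by genotype, the vertical tick is the mean of 10, and the dashed line marks 1 TPM; Phlda2 stands above all others and 9 members have means below 1 TPM.

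A middle group lay between 5 and 71 TPM. It held Blcap (70.9 TPM), the zinc finger gene Peg3 (69.7 TPM), the trafficking factor Trappc9 (55.1 TPM), the ubiquitin ligase Ube3a (52.5 TPM) and the membrane transporter Slc22a18 (47.4 TPM). Igf2r, the receptor that clears insulin-like growth factor 2, stood at 45.5 TPM, and its ligand Igf2 at 11.7 TPM. Further members there were the zinc finger transcription factor Plagl1 (19.8 TPM), Asb4 (19.3 TPM), the necdin gene Ndn (12.9 TPM), Mest (12.0 TPM), the placental transcription factor Ascl2 (12.0 TPM), the noncoding RNA H19 (10.0 TPM), Impact (8.48 TPM), the noncanonical Notch ligand Dlk1 (7.88 TPM) and the noncoding RNA Meg3 (5.47 TPM).

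Under 1 TPM stood the maternally expressed Zim1 (0.634 TPM) and Mirg (0.187 TPM) and 7 paternally expressed members. These 7 were Sgce (0.815 TPM), Nap1l5 (0.709 TPM), Peg13 (0.365 TPM), Airn (0.178 TPM), Magel2 (0.169 TPM), the retrotransposon-derived Peg10 (0.0942 TPM) and its relative Rtl1 (0.00478 TPM). Airn, the noncoding RNA that silences Igf2r when paternally transcribed, had 1 to 7 reads per library. Rtl1 had 0 to 5 reads, and these 2 members did not pass the filter on low counts. Tests below therefore cover 39 of the 41 members.

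The spread between libraries was close to that of all tested genes. The median over the tested members of the SD of log2 CPM across the 10 libraries was 0.449, beside 0.428 over all tested genes, and 21 of 39 members lay above that second value. The maternally expressed class had a median SD of 0.396 and the paternally expressed class 0.482. The steadiest were Ube3a (SD 0.122), Inpp5f (0.137), H13 (0.139), Trappc9 (0.170) and Blcap (0.172). Mirg (1.00) and Peg10 (1.29), with 0 to 16 and 0 to 23 reads per library, were the 2 members above the 90th percentile of all tested genes.

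The count table and the TPM table disagreed on some members, which bears on their levels and tests. The ratio of the mean TPM to the mean CPM per kilobase of exon had a median of 2.51 and a 95th percentile of 8.12 over the tested genes. It lay above that percentile in 7 members, with 524 in Gnas, 30.4 in Usp29, 26.9 in Meg3, 21.6 in Igf2, 14.3 in Rian, 9.95 in Sgce and 8.33 in Ube3a. Gnas had 35 to 140 counted reads per library against a level of 52.0 to 154 TPM. Its exons share bases with Nespas and Gm20721, which held 4.00 and 0.0287 CPM, and 64.5% of the exonic bases of Igf2 are shared with Gm49394 and Igf2os. Zrsr1 overlaps exons of Commd1 (79.4 CPM), Mest those of Copg2 and Kcnq1 those of Kcnq1ot1, each on the opposite strand. In all, 20 of 41 members overlap an exon of another gene, 17 of them on the opposite strand. How the counting treated strand and shared bases is not given in the sources used here, so values of Gnas, Igf2, Usp29, Meg3, Rian, Sgce, Ube3a, Zrsr1, Mest, Kcnq1 and Kcnq1ot1 are uncertain. Values of H19 are uncertain as well, with a ratio of 0.93 and an order of libraries that differs between CPM and TPM. Snurf, encoded by the same transcripts as Snrpn, was listed at 0 counts in every library.

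Neighbours of opposite parental expression stood at unequal levels. Of 11 such pairs, the paternally expressed gene had the higher TPM in all 10 libraries in 3 pairs and the lower TPM in all 10 in 5 pairs. Peg3 lay above Zim1 with a median log2 ratio of 6.36 (5.59 to 7.45), Mcts2 above its host gene H13 with 1.65, and Snrpn above Ube3a with 1.32. Airn lay below Igf2r with a median log2 ratio of −7.62, Peg13 below Trappc9 with −6.87, Nnat below Blcap with −5.32, Mest below Copg2 with −3.50 and Sgce below Ppp1r9a with −3.13. All ratios carry 0.1 TPM on both sides. Of the maternally expressed partners, H13, Ube3a, Trappc9, Blcap, Copg2 and Ppp1r9a are known as imprinted only in some tissues or for some transcripts.

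In 3 pairs the order by TPM changed between libraries. Dlk1 was above Meg3 in 8 of 10 libraries by TPM, with a median log2 ratio of 0.48, and in 10 of 10 by counts per kilobase of exon. The ratio of TPM to CPM per kilobase was 26.9 in Meg3 and 3.45 in Dlk1, so their order by counts is uncertain. The noncoding Kcnq1ot1 was above the potassium channel gene Kcnq1 in 5 of 10 by TPM, with −0.15, and in 7 of 10 by counts per kilobase. Igf2 was above H19 in 7 of 10 libraries by TPM, with 0.17, but in 0 of 10 by counts per kilobase of exon. No order of Igf2 and H19 can therefore be given from these tables.

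**Figure D2:**
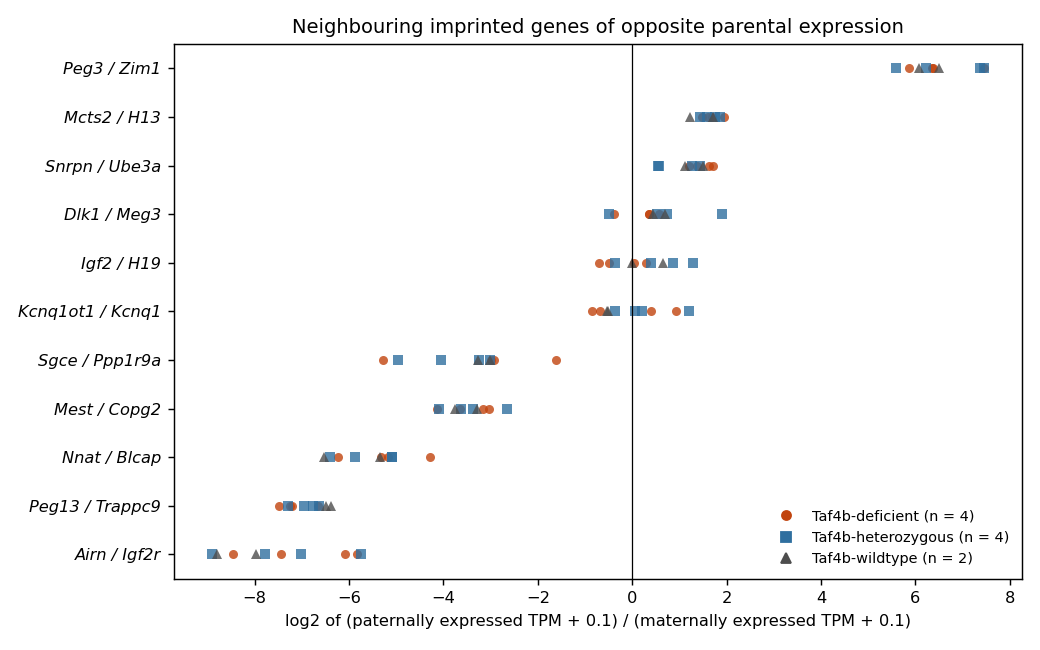
Log2 ratio of the paternally to the maternally expressed gene of 11 neighbouring pairs, from TPM with 0.1 added, 1 point per library. Peg3, Mcts2 and Snrpn lie to the right of 0 in all 10 libraries, while Dlk1, Igf2 and Kcnq1ot1 straddle 0 against their partners.

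The genotype comparisons called none of the imprinted genes. The threshold for a call was an adjusted p under 0.05 (Benjamini-Hochberg) in edgeR's quasi-likelihood test over all 20317 genes. Members called numbered 0 of 39 for deficient against heterozygous (0.0148% of all genes called), 0 of 39 for deficient against wildtype (0% of all genes), 0 of 39 for deficient against the mean of both fertile genotypes (0.00492%) and 0 of 39 for heterozygous against wildtype (0.00492%). With so few calls anywhere, a count of 0 says little about the members. At an unadjusted p under 0.05 the members were 5 (11.9% of all genes), 3 (3.66%), 3 (4.31%) and 3 (8.30%) in the same order. DESeq2 called 0 members in the 3 comparisons of deficient libraries and 1 in heterozygous against wildtype. These comparisons share libraries, so their values are not independent of each other.

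The 5 members under 0.05 for deficient against heterozygous were Phlda2, Plagl1, Zrsr1, H19 and Kcnq1ot1. Phlda2 (ENSMUSG00000010760; chromosome 7, 143501545 to 143503150, GRCm38) stood at 263, 310.0, 359 and 229 CPM in the deficient, 227, 142, 169 and 152 CPM in the heterozygous and 325 and 209 CPM in the wildtype libraries. Each deficient library lay above each heterozygous library, while the wildtype libraries fell inside the deficient range or just below it. The log2 difference between deficient and heterozygous was 0.75 (SE 0.20, adjusted p = 0.336, edgeR). Within litters of January 29 the deficient values were 263 and 310.0 CPM against 152 CPM, and within those of March 7 229 CPM against 227, 142 and 169 CPM. In bulk RNA, fewer cells of a type and less RNA per cell cannot be told apart, which holds for every difference given here.

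Plagl1 (ENSMUSG00000019817; chromosome 10, 13060504 to 13131694) stood at 51.7, 44.4, 87.5 and 47.5 CPM in the deficient, 43.9, 24.6, 29.3 and 35.7 CPM in the heterozygous and 44.9 and 51.1 CPM in the wildtype libraries. Deficient replicate 3 lay far above the others, and the deficient and heterozygous ranges touched without overlap at 44.4 and 43.9 CPM. The log2 difference was 0.79 (SE 0.24, adjusted p = 0.359, edgeR). Zrsr1, a relative of a splicing factor subunit, had 2.71, 3.49, 3.61 and 3.84 CPM in the deficient and 2.21, 1.95, 2.40 and 2.37 CPM in the heterozygous libraries, which do not overlap. Its wildtype libraries had 2.48 and 3.60 CPM, and the log2 difference between deficient and heterozygous was 0.61 (SE 0.22, adjusted p = 0.379, edgeR).

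H19 had 32.0, 25.7, 43.7 and 19.03 CPM in the deficient and 25.8, 16.1, 15.4 and 23.2 CPM in the heterozygous libraries. These ranges overlap, both wildtype libraries had 32.4 CPM, and the log2 difference was 0.58 (SE 0.26, adjusted p = 0.413, edgeR). With litter date as a term it was 0.19, and the heterozygous minus wildtype difference went from −0.69 to −0.15. By TPM the means of H19 were 10.2 in the deficient, 9.66 in the heterozygous and 10.6 in the wildtype libraries. Heterozygous replicate 3, its lowest library by CPM, was its highest by TPM at 16.6 TPM. Kcnq1ot1 was the member with a lower deficient level, at 28.2, 52.1, 43.0 and 24.8 CPM against 52.3, 94.99, 44.8 and 83.4 CPM in the heterozygous and 32.2 and 54.7 CPM in the wildtype libraries. The ranges overlap between 44.8 and 52.1 CPM, and the log2 difference was −0.90 (SE 0.31, adjusted p = 0.379, edgeR).

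**Figure D3:**
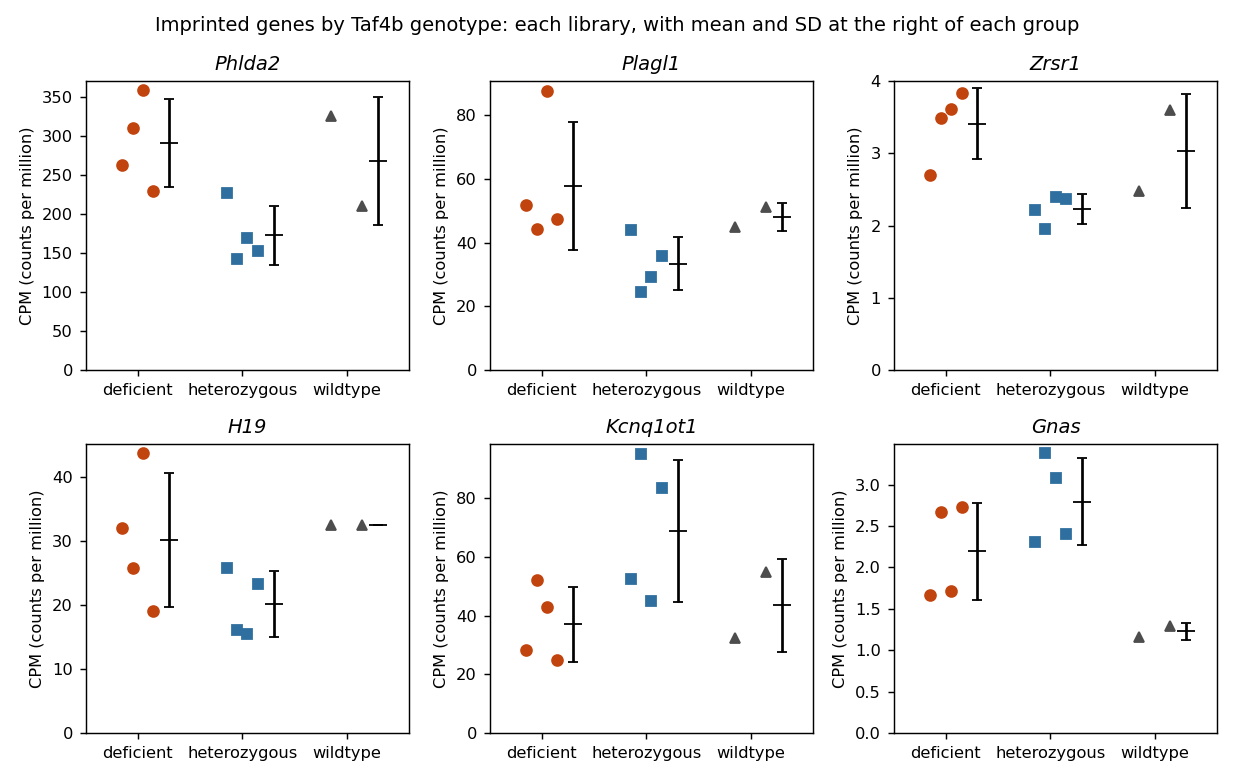
CPM of 6 imprinted genes in every library by Taf4b genotype, on linear axes from 0; the bar at the right of each group is the mean with its SD (n = 4, 4 and 2). Phlda2, Plagl1 and Zrsr1 are higher in all deficient than in all heterozygous libraries, while the wildtype libraries lie within or near the deficient range; no difference passed the adjusted threshold.

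Counted over all members, 5 of 39 lay higher in each of the 4 deficient than in each of the 4 heterozygous libraries (12.8%, against 3.31% of all genes). They were Phlda2, Slc22a18, Plagl1, Zrsr1 and Mcts2. Slc22a18 had 39.5 to 45.3 CPM against 31.9 to 38.0 CPM, and Mcts2, a retrogene tied to translation, 19.9 to 24.0 CPM against 16.7 to 19.6 CPM. No member lay lower in each deficient library (0 of 39, against 2.66% of all genes). Phlda2 and Slc22a18 are neighbours in the same cluster and their levels ran together, so they are not separate observations. The median log2 difference of the 39 members was 0.11, beside −0.05 over all tested genes, with 25 higher and 14 lower. With TPM in place of counts (limma on log2 TPM with 0.1 added) the members' median was 0.02, beside −0.11 over all tested genes. The split of the members was then 21 to 18. By TPM, Slc22a18, Plagl1 and Mcts2 overlapped between these groups, while Phlda2 and Zrsr1 did not. Slc22a18 had 51.4 TPM in heterozygous replicate 3, above the 51.2 TPM of the highest deficient library. The share of all genes separated by TPM was not counted.

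Heterozygous against wildtype, with 2 wildtype libraries, uses the same heterozygous libraries. Of 39 members, 7 lay lower by CPM in each heterozygous than in each wildtype library, as did 6.64% of all genes. They were H19, Zim1, Mest, Copg2, Plagl1, Zrsr1 and Peg13. Another 2, Mkrn3 and Gnas, lay higher, as did 9.17% of all genes. By TPM only Zim1 and Gnas stayed separate, and the other members named here overlapped. H19 had 16.6 TPM in heterozygous replicate 3, against 11.1 and 10.1 TPM in the wildtype libraries. Gnas had the smallest p, with 2.30, 3.38, 3.08 and 2.40 CPM in the heterozygous against 1.16 and 1.296 CPM in the wildtype libraries, and 1.67, 2.67, 1.71 and 2.73 CPM in the deficient libraries. Its log2 difference was 1.19 (SE 0.34, adjusted p = 0.252, edgeR), and DESeq2 gave 1.17 with an adjusted p of 0.0318. That difference rests on few counted reads, as stated above. Phlda2 differed by −0.63 (SE 0.24, adjusted p = 0.442, edgeR).

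Against wildtype, the deficient libraries were lowest relative to it in Peg13, a noncoding RNA within Trappc9. Peg13 had 0.567, 0.603, 0.920 and 0.716 CPM in the deficient, 0.815, 1.14, 0.925 and 1.15 CPM in the heterozygous and 1.45 and 1.43 CPM in the wildtype libraries. By CPM both wildtype libraries lay above all others, at 18 to 44 reads per library over the 10. The log2 difference to wildtype was −1.04 (SE 0.32, adjusted p = 1.00, edgeR) and to both fertile genotypes −0.78 (SE 0.25, adjusted p = 0.904, edgeR). Zim1, a zinc finger gene of the Peg3 cluster, had 2.05, 1.02, 2.37 and 1.78 CPM in the deficient and 2.94 and 3.37 CPM in the wildtype libraries, a log2 difference of −0.81 (SE 0.37, adjusted p = 1.00, edgeR). Gnas, with the values given above, differed from wildtype by 0.84 (SE 0.33, adjusted p = 1.00, edgeR). Against both fertile genotypes Phlda2 differed by 0.43 (SE 0.19, adjusted p = 0.904, edgeR) and Plagl1 by 0.53 (SE 0.23, adjusted p = 0.904, edgeR).

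Other measures differed between the same groups. Blood and macrophage markers had a median log2 difference of 0.85 between deficient and heterozygous, with 8 of 15 tested genes at an unadjusted p under 0.05 and 0 called. The meiotic stage score, defined next, was 0.02, 1.10, −1.86 and −0.30 in the deficient and −1.88, 1.82, 1.59 and 1.38 in the heterozygous libraries. The part of either in the differences of Phlda2 or Plagl1 was not tested beyond the fit with the stage score as a term, where Phlda2 differed by 0.63 and Plagl1 by 0.55, both with adjusted p above the threshold (0.225 and 0.280, edgeR).

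Libraries of the same genotype differed widely in meiotic stage. The score of a library was the mean log2 CPM of 30 genes that rise as meiosis begins, such as Dmc1, Sycp3 and Spo11, minus that of 17 pluripotency and early germ cell genes that fall, such as Nanog and Pou5f1. No member is in either list. The score ran from −1.88 to 1.82, a range of 3.70, and the 2 wildtype libraries stood at −0.18 and 0.17. Its slope was fitted with genotype as a term, so a slope is a log2 change per unit of the score.

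Of the 39 members, 10 were called for a slope (25.6%, against 24.8% of all tested genes). The members thus followed stage about as often as any gene did. By direction, 6 fell as stage advanced (11.8% of all genes did) and 4 rose (13.0% of all genes). Among the 6 were 5 paternally and 1 maternally expressed member, and among the 4 were 3 maternally and 1 paternally expressed member. With 10 genes in all, of which 2 share a promoter and 2 a cluster, no difference between the classes was tested.

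The steepest fall was that of Usp29 and Peg3, the paternally expressed pair that starts from the shared promoter stretch printed above. Usp29 (ENSMUSG00000051527; chromosome 7, 6730578 to 6967219) encodes a member of a deubiquitinase family and had 5.54, 2.73, 12.2 and 6.78 CPM in the deficient, 9.58, 2.31, 2.51 and 4.70 CPM in the heterozygous and 6.34 and 4.08 CPM in the wildtype libraries. The libraries with the lowest scores, deficient replicate 3 and heterozygous replicate 1, held the highest 2 values. Its slope was −0.57 (SE 0.085, adjusted p = 0.00102, edgeR), a 4.29-fold fall over the range of the score. It was the member with the closest relation to the score across libraries, with Pearson r = −0.935 (p = 0.00022, adjusted p = 0.0129) and Spearman rho = −0.952 (p = 0.00014, adjusted p = 0.014) in permutation tests with n = 10 libraries, adjusted over 117 relations. Without the 2 libraries farthest from the median score r was −0.866.

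Peg3 (ENSMUSG00000002265; chromosome 7, 6703892 to 6730431) had 338, 138, 579 and 224 CPM in the deficient, 497, 188, 163 and 316 CPM in the heterozygous and 418 and 385 CPM in the wildtype libraries. The same 2 libraries were the highest, and the lowest 2 were deficient replicate 2 and heterozygous replicate 3. Its slope was −0.46 (SE 0.088, adjusted p = 0.00406, edgeR), a 3.24-fold fall. Peg3 and Usp29 ran together across the libraries with Pearson r = 0.852 (permutation p = 0.00249, adjusted p = 0.056) and Spearman rho = 0.794 (permutation p = 0.00915, adjusted p = 0.103), which misses the threshold over the 45 pairs within clusters. Without 2 libraries r was 0.771. Their maternally expressed neighbour Zim1 had a slope of −0.22 with an adjusted p of 0.111 in edgeR.

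Of those 45 pairs, 1 passed by Pearson's r, Phlda2 with Slc22a18, both maternally expressed genes of the Kcnq1 cluster. Their r was 0.889 (permutation p = 0.00087, adjusted p = 0.0391) and rho 0.891 (permutation p = 0.00128, adjusted p = 0.0576) over n = 10 libraries. Without the 2 libraries farthest from the median of Phlda2, r was 0.809. Over all 45 pairs r ran from −0.663 to 0.889 with a median of 0.113, and 25 were positive.

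The other 4 falling members were Asb4, Plagl1, Impact and Snrpn. Asb4, a SOCS-box protein, had 30.1, 16.7, 37.4 and 46.8 CPM in the deficient, 66.6, 14.1, 31.9 and 19.99 CPM in the heterozygous and 27.5 and 39.2 CPM in the wildtype libraries. Heterozygous replicate 1 was its highest library, and its slope of −0.43 (SE 0.11, adjusted p = 0.0131, edgeR) is a 3.03-fold fall over the range. Plagl1, with the values given above, had a slope of −0.23 (SE 0.056, adjusted p = 0.0133, edgeR). Impact, a translational regulator, fell by a slope of −0.21 (SE 0.045, adjusted p = 0.00715, edgeR) within a range of 10.7 to 20.1 CPM.
Snrpn had a slope of −0.18 (SE 0.056, adjusted p = 0.042, edgeR) within 52.3 to 115 CPM, and it kept its call in 10 of 28 alternative settings.

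The 4 rising members were Dlk1, Cdkn1c, Kcnq1 and Blcap. Dlk1 (ENSMUSG00000040856; chromosome 12, 109452823 to 109463336) had 16.4, 16.0, 8.41 and 9.91 CPM in the deficient, 6.32, 15.4, 15.1 and 11.9 CPM in the heterozygous and 14.7 and 15.01 CPM in the wildtype libraries. Its lowest 2 values are those of the 2 libraries with the lowest scores, and the 6 libraries with a score above 0 lay between 11.9 and 16.4 CPM. The slope was 0.34 (SE 0.061, adjusted p = 0.00291, edgeR), a 2.38-fold rise over the range.

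Cdkn1c had 64.3, 88.4, 42.9 and 67.5 CPM in the deficient, 39.6, 62.3, 83.0 and 58.6 CPM in the heterozygous and 39.6 and 56.2 CPM in the wildtype libraries. Its slope was 0.27 (SE 0.056, adjusted p = 0.00632, edgeR), and its highest 3 values are those of the 3 libraries low in Gm23935. It was the 1 of 39 members that lay above the other 7 libraries in all 3 (2.6%, against 2.77% of all genes). Kcnq1 rose with a slope of 0.45 (SE 0.12, adjusted p = 0.0188, edgeR) at a low level of 0.611 to 2.70 CPM. Blcap rose with 0.12 (SE 0.035, adjusted p = 0.0276, edgeR) and ranged from 57.9 to 86.1 CPM, with heterozygous replicate 1 and deficient replicate 3 as its lowest libraries. Dlk1's neighbours Meg3, Rian and Mirg had slopes between −0.03 and 0.004, with adjusted p of 0.813 or more in edgeR. Below an unadjusted 0.05 but not called were Zim1, given above, H19 with a slope of −0.19 (SE 0.074, adjusted p = 0.0875, edgeR) and Phlda2 with −0.14 (SE 0.058, adjusted p = 0.104, edgeR).

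**Figure D4:**
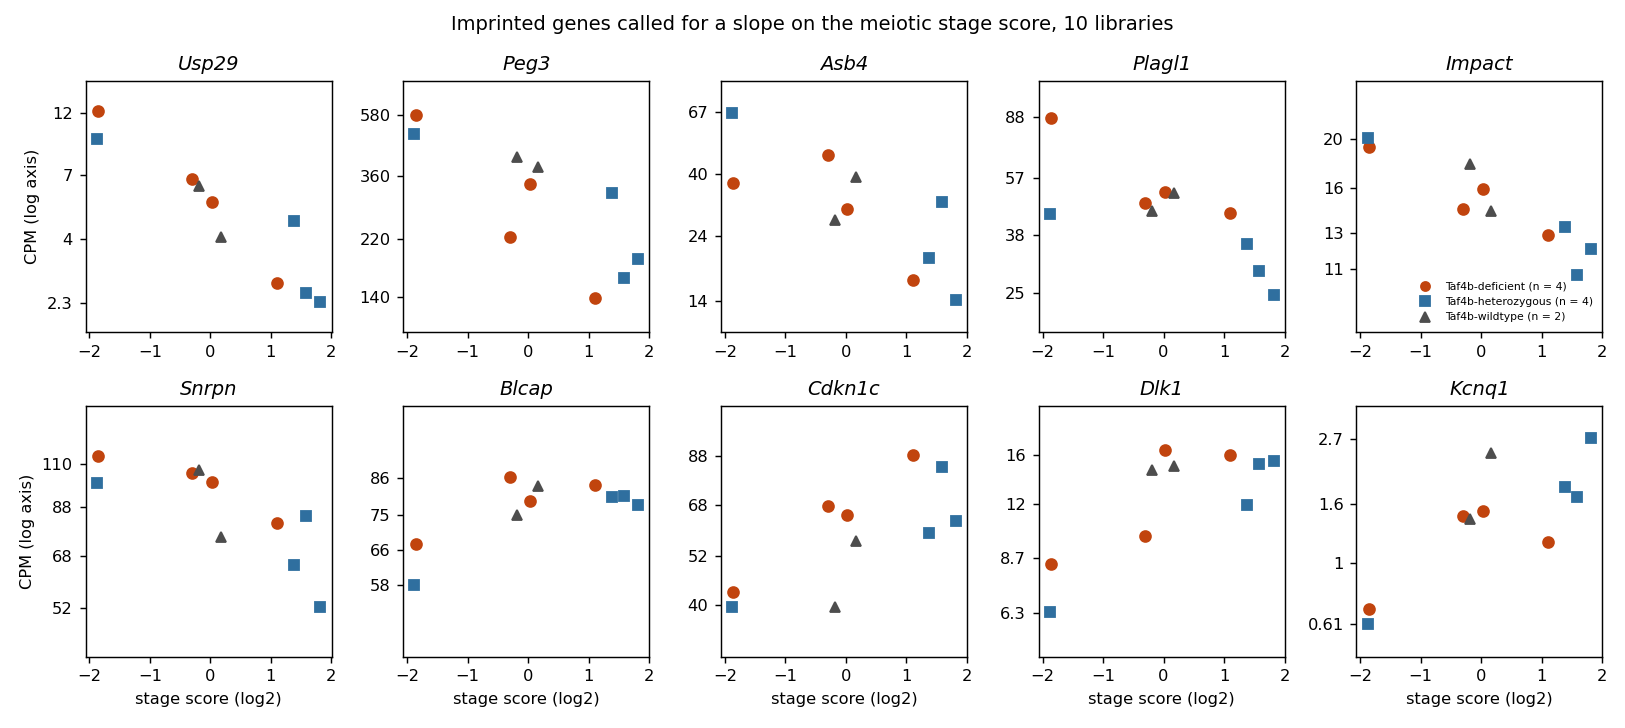
CPM (log axis) of the 10 imprinted genes called for a slope, against the meiotic stage score of each of the 10 libraries, from the steepest fall to the steepest rise. The 2 libraries near a score of −1.9 hold the highest values of Usp29, Peg3 and Impact and the lowest of Blcap, Dlk1 and Kcnq1.

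These slopes lean on the 2 libraries with the lowest scores, heterozygous replicate 1 and deficient replicate 3. Without the first, 2 members were called (Usp29 with −0.77 and Peg3 with −0.68), and without the second 6 were. Without both, 0 of 39 members and 0 of all genes were called, with 5 members at an unadjusted p under 0.05. The slope of Usp29 was then −1.12, of Peg3 −0.81, of Asb4 −0.92, of Dlk1 0.34 and of Cdkn1c 0.33, while those of Blcap (−0.01) and Kcnq1 (−0.003) were near 0. Pearson's r of Dlk1 with the score, which uses no genotype term, went from 0.775 to 0.265 when both libraries were left out. That of Plagl1 went from −0.787 to −0.869. With litter date as a term 9 members were called, H19 (−0.21) among them but Snrpn and Blcap not.

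**Figure D5:**
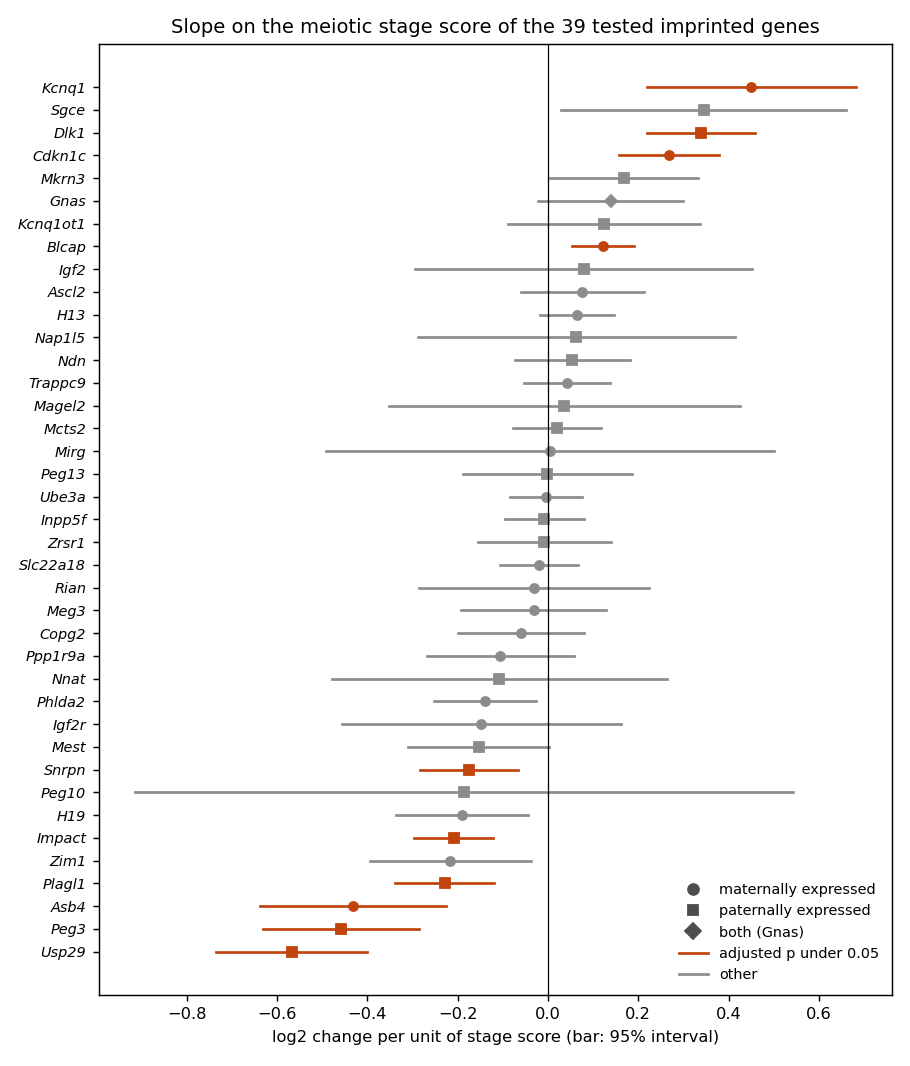
Slope of each of the 39 tested imprinted genes on the stage score with its 95% interval (a normal multiple of the SE, narrower than the test itself gives), coloured where the adjusted p is under 0.05 and shaped by parental expression. The 6 called falls reach from −0.57 in Usp29 to −0.18 in Snrpn, and the 4 called rises from 0.12 in Blcap to 0.45 in Kcnq1.

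Igf2r separated the 3 libraries low in Gm23935 from the rest. Igf2r had 117 and 114 CPM in deficient replicates 2 and 4 and 70.2 CPM in heterozygous replicate 3, against 217 to 283 CPM in the other 7 libraries. With Peg10 it made 2 of 39 members that lay below in all 3 libraries (5.1%, against 5.91% of all genes). No member passed for a correlation with the level of supporting or stromal markers, with a smallest adjusted p of 0.111 and 0.219 by permutation over n = 10 libraries.

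Further imprinted genes and the factors that erase, protect or set imprints were read from lists. Of 40 other imprinted genes listed, 39 were found in the count table and 33 were tested, and 0 were called in any genotype comparison, with 0 or 1 at an unadjusted p under 0.05. For stage 15 of the 33 were called (45.5%, against 24.8% of all tested genes), 5 higher and 10 lower (13.0% and 11.8% of all genes). Named slopes were 0.38 in Cd81, a tetraspanin, −0.33 in Dhcr7 of cholesterol synthesis, −0.29 in the lipid flippase Atp10a and −0.38 in the insulin gene Ins2. Of 17 tested imprint factors 0 were called by genotype and 7 by stage (41.2%, against 24.8% of all tested genes), 3 higher and 4 lower. The stage calls of both lists lean on the 2 libraries lowest in stage score, without which 0 of all genes were called. Whether the shares of these lists differ from that of all genes was not tested. Tet1 and Tet2, which oxidise methylcytosine, fell with slopes of −0.49 and −0.34, Dppa3 fell with −0.28, and Uhrf1, which recruits the maintenance methyltransferase, rose with 0.42. Zfp57, chosen for mention after its level was seen, had 0.283 to 1.14 CPM, and the partner Trim28 292 to 799 CPM.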

How the data were processed

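Bulk RNA-seq of 10 libraries was used. The submitters' processing notes name Trim Galore 0.5.0 for trimming, HISAT2 2.1.0 with GRCm38 for alignment and SAMtools 1.9, without settings. Gene counts were made by the authors with featureCounts of Subread 1.6.2 and TPM values with StringTie 1.3.3b, going by those notes. The authors also deposited DESeq2 output, per the file headers a mean normalized signal, a log2 fold change with SE, a test score, a p-value and its adjusted form. Its contrast, the strand setting and the annotation release are not given in the sources used here.

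Counts were used as deposited. All 55536 genes matched GENCODE M21, which gave positions and exon lengths. Genes were kept by filterByExpr (20317), scaled by TMM, and tested in edgeR 4.0.16 (R 4.3.3) by quasi-likelihood over all 10 libraries, with Benjamini-Hochberg adjustment over all tested genes. CPM uses TMM-scaled totals; log2 CPM carries a prior count of 2. SE was derived from the test statistic. Correlations used 100000 permutations, two-sided. Library totals of 28949924 to 44166320 counts set the precision, and reads carry no molecular identifiers.

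Members, gene lists and tests were chosen with earlier results of these data known. Fold changes or slopes are printed for members called or with an unadjusted p under 0.05, and for other members by counts and ranges, except where a neighbour is set beside a called member. In lists up to 4 genes with the smallest p, or the highest levels, are named. Parental expression and scope come from textbook knowledge. Alternatives covered scaling, filters, tools (DESeq2 1.42.0, limma 3.58.1 voom with sample weights), TPM with pseudocounts of 0.1 and 1, litter date, replicate number, stage, rRNA-like reads and cell markers as terms, and leaving out libraries. Leaving out the 3 libraries low in Gm23935 or the 2 lowest in stage score was chosen after seeing the data. The gene test was tested on simulated data. When a wildtype library is left out, the other is assumed to vary like the other groups.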

Additional observations from a re-analysis of the deposited data

Results flagged for a closer look

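Among 80 sets of 4 libraries of 1 genotype searched (39 members and the stage score, deficient and heterozygous), 5 held a library set apart from the other 3 by a gap above the 95% critical value of Dixon's test. Chance alone marks about 1 set in 20. Igf2r was lowest in heterozygous replicate 3 at 70.23 CPM, 1 of the 3 libraries low in Gm23935. Copg2 was highest in deficient replicate 1 at 295.9 CPM. Plagl1 was highest in deficient replicate 3 at 87.51 CPM, and Blcap lowest in heterozygous replicate 1 at 57.91 CPM. Those 2 libraries, deficient replicate 3 and heterozygous replicate 1, had the lowest stage scores, and the score of heterozygous replicate 1, −1.879, was the lowest and itself set apart.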

How the results depend on the processing

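Members called for deficient against heterozygous, 0 in the fit reported, numbered 4 with limma voom and sample weights (Phlda2, Plagl1, Snrpn, Kcnq1ot1) and 0 to 1 when 1 library was left out, the 1 being Phlda2 without heterozygous replicate 1. Heterozygous against wildtype gave 1 with DESeq2 and 2 with voom. For the stage slope, 10 in the fit reported, the count was 3 with voom, 2 with replicate number as a block, 2 to 10 with 1 library left out and 0 without the 2 libraries lowest in stage score. Without those 2, Blcap (−0.014), Kcnq1 (−0.0032) and Phlda2 (0.12) changed the sign of their slope, as did Zim1 (0.00092) with log2(TPM + 1). The cause of these changes was not tested. Replicate numbers did not pair libraries: deviations of libraries with the same number correlated between −0.42 and 0.38, and the block gave 0 members in each genotype comparison. All genes called for deficient against heterozygous were 3 in the fit reported, 224 with DESeq2, 3012 with voom and 519 without heterozygous replicate 1. For stage they were 5039, 1792 with voom, 1388 with the block and 698 without heterozygous replicate 1. The median log2 level of maternally expressed members (3.91) was 2.81 from counts per kilobase and 3.26 without members of restricted scope. That of paternally expressed members (2.53) was −0.59, 2.18 and, among tested members, 2.99. Members with few reads (Mirg, Peg10, Airn, Rtl1, Magel2) allow no firm difference at this depth.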

Other observations

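In the authors' deposited table of DESeq2 output, whose contrast is not stated there, 39 of the members were listed and none had an adjusted p under 0.05. The smallest p-values among the members in the authors' deposited table were those of Peg13, with a log2 fold change of −0.77, Plagl1 with 0.48 and Kcnq1ot1 with −0.72.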
